A study of Mus musculus with 28 samples.

Results

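Of 26326 regions that carried the histone mark H3K27me3 in mouse microglia, the resident macrophages of the brain, 2284 (8.68%) were centred on a LINE element away from gene starts. LINE elements are long interspersed retrotransposons that copy themselves through an RNA intermediate. A region counted as one of them when the authors' annotation of its centre named a repeat of the LINE class and the region was shorter than 50 kb. By that annotation the centre also had to lie more than 5 kb from the nearest transcription start site (TSS). Of 2495 regions centred on a LINE, 181 were left out for a TSS within 5 kb and 30 more for their length. The longest region inside the limit spanned 47595 bp and the shortest outside it 50100 bp. The nearest centre inside the distance limit lay 5049 bp from a TSS and the farthest one outside it 4964 bp. No measured signal entered this choice. The annotation describes the centre of a region, so the rest of each region can hold other sequence.

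H3K27me3 was profiled by chromatin immunoprecipitation and sequencing (ChIP-seq) in microglia of adult male wild-type C57BL/6 mice. CD229-CD11c-, CD229+CD11c- and CD229+CD11c+ microglia came from mice fed 0.2% cuprizone, a copper chelator that kills oligodendrocytes and removes myelin, for 4 weeks. CD229 is a receptor of the SLAM family and CD11c an integrin. Basal microglia, labelled CD44LowCD45LowCD11bLow, came from mice on a regular diet. Each group had 3 libraries with counts, and brains of 2 to 6 mice were pooled for sorting, so a library is a pool and not an animal. Basal microglia therefore differ from the 3 other groups in diet and in sort gate at once, and the effects of diet and gate cannot be told apart against them.

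H3K27me3 is written by Polycomb repressive complex 2 (PRC2) and marks genes and broad domains that are held silent. In mammals PRC2 is drawn chiefly to unmethylated stretches rich in CpG dinucleotides, from which the mark spreads into the neighbouring chromatin. Most LINE copies are old, truncated and CpG-poor, and young L1 copies are silenced mainly by DNA methylation and H3K9 methylation in somatic cells. A LINE under H3K27me3 can thus be part of a larger marked domain, which was not tested here.

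The libraries held 7740002 to 11362168 tags in regions, with a median of 126 to 187 tags per LINE-centred region. Titles of 8 libraries carry a PE150 tag, and replicate 3 of each group does not. In the 3 cuprizone groups this untagged replicate stood apart: chi-square per degree of freedom over regions was 1.68 to 1.94 between replicates 1 and 2 and 3.43 to 7.60 between replicate 3 and either of them. No pair differed by as little as counting noise. As for the labelled cell type, 0 of 8 microglial marker genes were overlapped by an H3K27me3 region, against 5 of 5 for neurons, 3 of 4 for astrocytes, 3 of 5 for oligodendrocytes and 2 of 3 for endothelial cells. Since counts are relative to the tags in regions, a change in the total amount of the mark cannot be seen.

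The elements at the centres were mostly L1. Rodent L1 families (Lx, L1_Mus, L1_Mur and their relatives) gave 1427 regions (62.5%), older L1 families shared with other mammals 543 (23.8%), and the mouse-specific L1Md families 158 (6.92%). The much older L2 elements gave 128 regions, CR1 gave 23 and RTE 5. The commonest of 114 element names were Lx8 (139 regions), L1_Mus3 (117) and L1Md_F2 (113). Among the L1Md families, which hold the copies still able to move, L1Md_A centred 15 regions, L1Md_T 7 and L1Md_Gf 1. None of these counts was set against the copies of a family in the genome, and how well reads could be placed in each was not examined. They therefore do not measure how often a family carries the mark. By position 1748 regions (76.5%) were intergenic and 536 (23.5%) intronic. Their median length was 5542 bp, against 6386 bp over all regions, and the median distance to a TSS was 37.6 kb. By the authors' annotation the centre lay over 100 kb from the nearest TSS in 443 regions.

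Some of the regions held annotated starts. In 126 regions (5.52%) at least 1 whole promoter window of RefSeq (GRCm38.p6, from 250 bases before to 50 after a start) lay inside the region. No distance from the centre was required. Some of these regions were too short to hold a start over 5 kb from it, such as one of 2706 bp nearest to Tafa5. The 5 kb limit thus holds for the authors' annotation and not for every RefSeq start. Across all 32851 promoters of the table, the 250 bases before the start held a median of 6 CG dinucleotides, searched as CG, which reads the same on both strands, and 25.4% held 16 or more, the 75th percentile used here to call a start CpG-rich. The sequences below are 250 bases upstream of starts inside regions that changed in CD229+CD11c- microglia relative to basal microglia, with every CG in capitals. They are shown because regions with and without such starts had different counts of rises and falls. The first 4 belong to regions that rose and the last 2 to regions that fell. They are examples and not an ordering by CG: other regions that rose held starts with 0 (Gm34111), 3 (Gm35396), 4 (Gm34255, in the Pde4c region) and 6 CG (Gm26705).
9530059O14Rik: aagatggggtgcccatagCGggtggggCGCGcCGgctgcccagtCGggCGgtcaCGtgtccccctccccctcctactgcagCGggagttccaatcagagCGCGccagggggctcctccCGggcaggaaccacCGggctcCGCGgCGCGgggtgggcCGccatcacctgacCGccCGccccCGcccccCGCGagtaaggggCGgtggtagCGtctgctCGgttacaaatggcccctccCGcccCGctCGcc
Slc35d3: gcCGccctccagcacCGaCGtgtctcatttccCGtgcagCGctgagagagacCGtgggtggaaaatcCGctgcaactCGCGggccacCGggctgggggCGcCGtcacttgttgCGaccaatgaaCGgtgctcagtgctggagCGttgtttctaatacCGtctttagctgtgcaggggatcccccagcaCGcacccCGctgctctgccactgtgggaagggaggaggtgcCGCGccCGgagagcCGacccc
Grin2c: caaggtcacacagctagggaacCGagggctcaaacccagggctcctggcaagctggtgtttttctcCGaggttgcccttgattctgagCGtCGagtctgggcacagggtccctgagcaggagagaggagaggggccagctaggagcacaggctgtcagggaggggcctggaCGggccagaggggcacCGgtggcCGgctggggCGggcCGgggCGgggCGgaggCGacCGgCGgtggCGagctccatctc
Tctn2: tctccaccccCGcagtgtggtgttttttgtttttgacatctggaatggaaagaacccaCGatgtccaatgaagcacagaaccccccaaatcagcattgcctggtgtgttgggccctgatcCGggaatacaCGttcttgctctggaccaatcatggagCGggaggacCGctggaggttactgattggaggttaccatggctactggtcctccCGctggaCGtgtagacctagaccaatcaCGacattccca
Gm38424: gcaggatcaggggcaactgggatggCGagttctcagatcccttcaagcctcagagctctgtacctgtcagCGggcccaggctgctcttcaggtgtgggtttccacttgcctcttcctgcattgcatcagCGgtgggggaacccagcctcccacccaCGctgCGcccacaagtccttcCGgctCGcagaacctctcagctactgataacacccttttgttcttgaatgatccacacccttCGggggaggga
Gm46748: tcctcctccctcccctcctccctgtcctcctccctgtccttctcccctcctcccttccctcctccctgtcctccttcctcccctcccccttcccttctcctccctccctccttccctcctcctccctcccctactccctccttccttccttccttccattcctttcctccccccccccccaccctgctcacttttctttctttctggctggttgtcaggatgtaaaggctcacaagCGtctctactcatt

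The 9530059O14Rik sequence (chr9:122572251-122572500, plus strand) held 28 CG, a count reached by 7.61% of all promoters. The Slc35d3 sequence (chr10:19851460-19851709, minus strand) held 22, reached by 14.8% of promoters, and the Grin2c sequence (chr11:115267244-115267493, minus strand) held 15, reached by 27.3%. The Tctn2 sequence (chr5:124598499-124598748, plus strand) held 9, which 40.3% of promoters reach. The Gm38424 sequence (chr5:31596705-31596954, plus strand) held 8, reached by 43.0%, and the Gm46748 sequence (chr2:75061360-75061609, plus strand) held 1. A CG count alone did not order the pair in the middle: the Tctn2 and Gm38424 starts were nearly equal in CG, and their regions moved in opposite directions.

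In basal microglia the LINE-centred regions were marked about as strongly as other regions. Per the authors' deposited table, which rests on basal replicates 1 and 2, their median log2 enrichment over input was 1.46 (quartiles 1.27 and 1.68), beside 1.49 (1.30 and 1.753) over all regions and 1.70 over the 5054 regions with a TSS within 5 kb. Regions centred on an LTR retrotransposon had a median of 1.46. These 2 basal libraries were the ones used to call the regions, and none of the LINE-centred regions lay below 1. In basal replicates 3, 4 and 5, which took no part in calling regions, the median density was 3.01 CPM per kb (tags scaled to a common TMM-adjusted total of tags in regions, per kb of region) over LINE-centred regions and 3.00 over all regions. The middle 90% of LINE-centred regions, from the 5th to the 95th percentile, ran from 2.21 to 4.00 CPM per kb.

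A single region stood far above the others in density. It spanned 4.55 kb at chr11:109010958-109015510 (mm10), centred on an L1_Mur1 element 92.9 kb downstream of the TSS of Axin2, a feedback inhibitor of Wnt signalling, and carried 21.1 CPM per kb in basal microglia. The next were a region in an intron of Gm7827 on chromosome 8 with 6.59 CPM per kb and a region at Tctn2 with 6.52. Input was not subtracted from these counts, so density does not rank regions by their enrichment over input. The Tctn2 region was also the densest one centred on an L1Md element, followed by regions near Zfp709 with 5.41 and in Pde4c with 5.28 CPM per kb. The 3 longest regions, at Ano1 (47.6 kb), beside Tmem247 (47.4 kb) and at Bnc1 (45.5 kb), had 2.54, 3.52 and 3.37 CPM per kb. By length class the median density was 2.80 CPM per kb under 3 kb, 2.89 from 3 to 5 kb, 3.01 from 5 to 10 kb, 3.13 from 10 to 20 kb and 3.36 from 20 to 50 kb.

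LINE-centred regions held a smaller part of the H3K27me3 tags in both CD229+ subsets than in basal microglia. Of all tags in regions they took 5.56, 5.65 and 5.95% in the libraries of CD229-CD11c- microglia, 5.07, 5.22 and 5.38% in CD229+CD11c- microglia, 5.38, 5.51 and 5.52% in CD229+CD11c+ microglia, and 5.77, 5.92 and 6.03% in basal microglia. The libraries of the CD229+ subsets all lay below the basal ones, whereas CD229-CD11c- and basal libraries overlapped. The means were 5.72 ± 0.20% in CD229-CD11c- microglia, 5.22 ± 0.15% in CD229+CD11c- microglia, 5.47 ± 0.08% in CD229+CD11c+ microglia and 5.91 ± 0.13% in basal microglia (SD, n = 3 each). With 3 libraries against 3, no exact permutation test can fall below p = 0.1, and none was run. In bulk samples, a change in the mix of cells and a change in the mark per cell cannot be told apart. A lower part was not seen in LINE-centred regions alone: LTR-centred regions took 6.83 ± 0.08% in CD229+CD11c- and 7.49 ± 0.11% in basal microglia. Over regions with a TSS within 5 kb the order was reversed, with 26.0 ± 0.05% in CD229+CD11c- and 23.2 ± 0.44% in basal microglia.

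**Figure D1:**
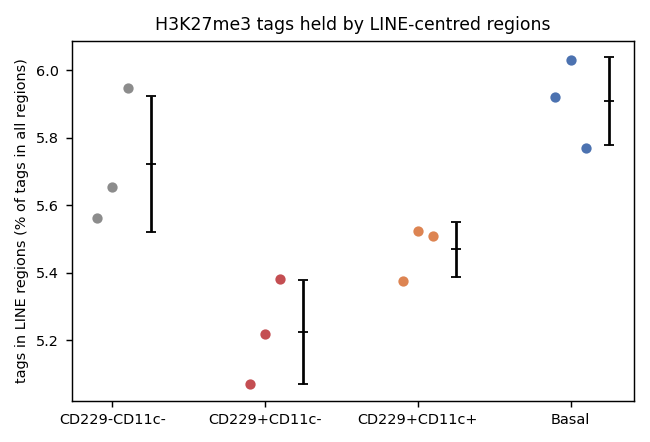
Tags in the 2284 LINE-centred regions as a percentage of all tags in regions (vertical axis), 1 point per library in each group (horizontal axis), with the mean and SD in black. The libraries of both CD229+ subsets lie between 5.07 and 5.52%, below every basal library.

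The clearest comparison was CD229+CD11c- against basal microglia. At an adjusted p under 0.05 in edgeR's quasi-likelihood test, with Benjamini-Hochberg adjustment over all 26326 regions, 42 LINE-centred regions (1.84%) rose and 91 (3.98%) fell. Over all regions 9.52% rose and 3.47% fell, 13% in all. The LINE-centred regions thus rose in a smaller share than the whole, and fell in a share near it. Their median log2 fold change was -0.10, beside -0.03 over all regions, and 69.9% of them were below 0, beside 54.3%. LTR-centred regions had 82 rises (3.12%) and 80 falls (3.04%) with a median of -0.06. Intergenic regions without a repeat at the centre had 303 rises (3.88%) and 264 falls (3.38%), also with a median of -0.06. Most changes were small: called fold changes ran from -0.997 to 1.02 on the log2 scale. In 130 of the 133 called regions the libraries of the groups did not overlap. The calls were made on these same values, so this is not separate support, and no such share over all called regions is given.

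The balance of rises and falls depended on how libraries were scaled. With each library scaled to its total tags in regions, 22 LINE-centred regions (0.963%) rose and 444 (19.4%) fell, beside 5.99% and 14.4% of all regions, and the median of all regions moved to -0.16. Under this scaling the share of falls thus lay above that of all regions. Relative to the median of all regions, LINE-centred regions stood at -0.08 under both scalings and at -0.06 with offsets fitted by loess against the mean level of a region. The PE150 tag in library titles split each group into 2 tagged libraries and 1 untagged one. Tagged libraries alone gave 66 rises (2.89%) and 242 falls (10.6%), beside 13.6% and 7.45% of all regions. The tag as a term in the model gave 76 rises (3.33%) and 231 falls (10.1%), beside 14% and 8.10% of all regions. The share of falls among LINE-centred regions was above that of all regions in both fits. Leaving out basal replicate 4 left 27 rises (1.18%) and 32 falls (1.4%), beside 6.35% and 1.57% of all regions. There were 58 falls (2.54%) without basal replicate 3, beside 2.18% of all regions. Without CD229+CD11c- replicates 1 and 2 there were 40 (1.75%) and 44 (1.93%), beside 1.79% and 1.94%.

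**Figure D2:**
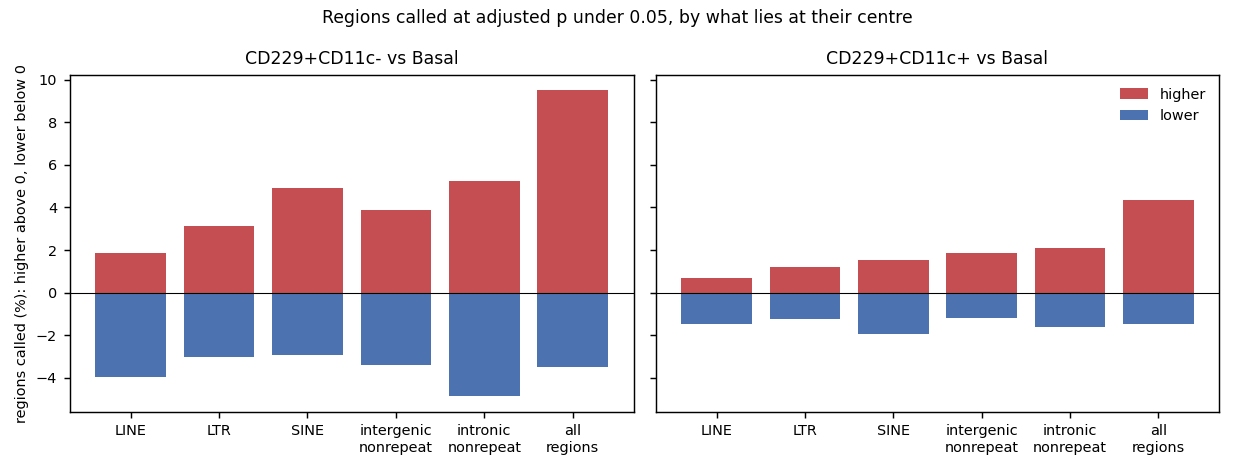
Share of regions called at an adjusted p under 0.05 (vertical axis, higher above 0 and lower below it) by what lies at their centre (horizontal axis), for CD229+CD11c- against basal microglia on the left and CD229+CD11c+ against basal microglia on the right. LINE-centred regions have the smallest red bar in both panels, 1.84% and 0.701%.

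Among the regions that rose, the one at Tctn2, which encodes a protein of the ciliary transition zone, changed most by the rule for named regions (called, at or above the median level of LINE-centred regions, and no overlap between groups). It spans chr5:124579695-124599825 (mm10), is centred on an L1Md_F2 element in intron 6 of the neighbouring Gtf2h3 gene and contains the Tctn2 start shown above. It had 209, 218 and 255 CPM in CD229+CD11c- microglia, against 138, 121 and 135 CPM in basal microglia. The lowest of the CD229+CD11c- libraries lay well above the highest basal one. Groups that do not overlap were a condition of the rule, so for regions it named this is no separate support. Its log2 fold change was 0.79 ± 0.11 (SE; edgeR adjusted p = 4e-05).

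The Slc35d3 region (chr10:19837318-19855256, L1MCa at the centre) held the start of Slc35d3, a member of the nucleotide sugar transporter family. It had 117, 108 and 126 CPM in CD229+CD11c- microglia, against 83.8, 72.4 and 69.3 CPM in basal microglia. The groups did not overlap, and its log2 fold change was 0.64 ± 0.09 (edgeR adjusted p = 2.98e-05). The region at 9530059O14Rik (chr9:122549503-122581674, L1MD2 at the centre) had 141, 131 and 131 CPM in CD229+CD11c- microglia, against 89.5, 82.4 and 89.5 CPM in basal microglia. All libraries of the subset lay above all basal ones, with a log2 fold change of 0.62 ± 0.11 (edgeR adjusted p = 0.00032). Grin2c encodes an NMDA receptor subunit, and an L1MC5 element in its intron 4 centred a region (chr11:115247813-115270356) that reached its start. There the libraries of a group hardly varied, with 204, 201 and 201 CPM in CD229+CD11c- microglia and 144, 133 and 140 CPM in basal microglia. Its log2 fold change of 0.54 ± 0.06 had an edgeR adjusted p of 3.67e-06.

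The other regions named by the rule held no annotated start. A region 9.8 kb upstream of Vamp4, a SNARE of the Golgi and endosomes, was centred on an L2c element (chr1:162551368-162570072) and had 117, 130 and 149 CPM in CD229+CD11c- microglia, against 93.2, 82.2 and 77.7 CPM in basal microglia (log2 fold change 0.64 ± 0.11, edgeR adjusted p = 0.00033). The dense Axin2 region had 154, 154 and 136 CPM in CD229+CD11c- microglia, against 107, 84.9 and 96.7 CPM in basal microglia (0.62 ± 0.13, edgeR adjusted p = 0.00337). Neither showed an overlap between the groups. A region 501 kb from the TSS of 1700012I11Rik rose by 0.56 and one in intron 1 of Glt8d2, which encodes a glycosyltransferase-domain protein, by 0.54 on the log2 scale. These 8 regions stayed called with any 1 of the 6 libraries left out.

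None of the 8 falls named by the rule held an annotated start. Their means in basal microglia ran from 18.8 to 109 CPM, and those of the 8 rises from 38.5 to 213 CPM. The largest fall by the rule was in intron 2 of Emilin2, which encodes an extracellular matrix glycoprotein (chr17:71282432-71290522, L1MC1 at the centre). It had 16.4, 20.3 and 22.2 CPM in CD229+CD11c- microglia, against 31.1, 31.2 and 32.2 CPM in basal microglia. The groups lay far apart, with a log2 fold change of -0.69 ± 0.16 (edgeR adjusted p = 0.00662). The call was lost by a small margin without CD229+CD11c- replicate 1, at an edgeR adjusted p of 0.0532.

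A region centred on Lx9 in intron 6 of Agbl4, a carboxypeptidase that trims glutamate chains from tubulin, with Bend5 as the gene of the nearest TSS, had 16.9, 16.2 and 18.3 CPM in CD229+CD11c- microglia, against 26.9, 27 and 24.9 CPM in basal microglia (-0.61 ± 0.12, edgeR adjusted p = 0.00111). In intron 2 of Ptk2, the focal adhesion kinase gene, a region centred on Lx10 had 13.8, 18.2 and 13.7 CPM in CD229+CD11c- microglia, against 23.3, 21.3 and 23.1 CPM in basal microglia (-0.57 ± 0.13, edgeR adjusted p = 0.00381). The groups did not overlap in either. In intron 9 of Tmprss7, a membrane-bound serine protease gene, a region of 30.1 kb had 66.5, 77.5 and 81.1 CPM in CD229+CD11c- microglia, against 118, 107 and 101 CPM in basal microglia (-0.53 ± 0.09, edgeR adjusted p = 0.000266). Its groups were clearly apart too.

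An intergenic region 226 kb upstream of 4933416E03Rik fell by 0.56 on the log2 scale, one 6.93 kb upstream of 8030443G20Rik fell by 0.54 and one 280 kb upstream of Lrig3 fell by 0.52. A region in intron 2 of Gpr141, an orphan G protein-coupled receptor gene, fell by 0.57. Of the 8 falls, those at Agbl4, Ptk2, Tmprss7 and 4933416E03Rik stayed called with any 1 of the 6 libraries left out. The Gpr141 call was lost in 4 of 6 such fits, with an edgeR adjusted p of up to 0.158 without basal replicate 4, and also with loess offsets (0.0605). The Lrig3 call was lost in 2 of them (up to 0.0974, without basal replicate 4) and that of 8030443G20Rik in 1 (0.0741, without CD229+CD11c- replicate 2).

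**Figure D3:**
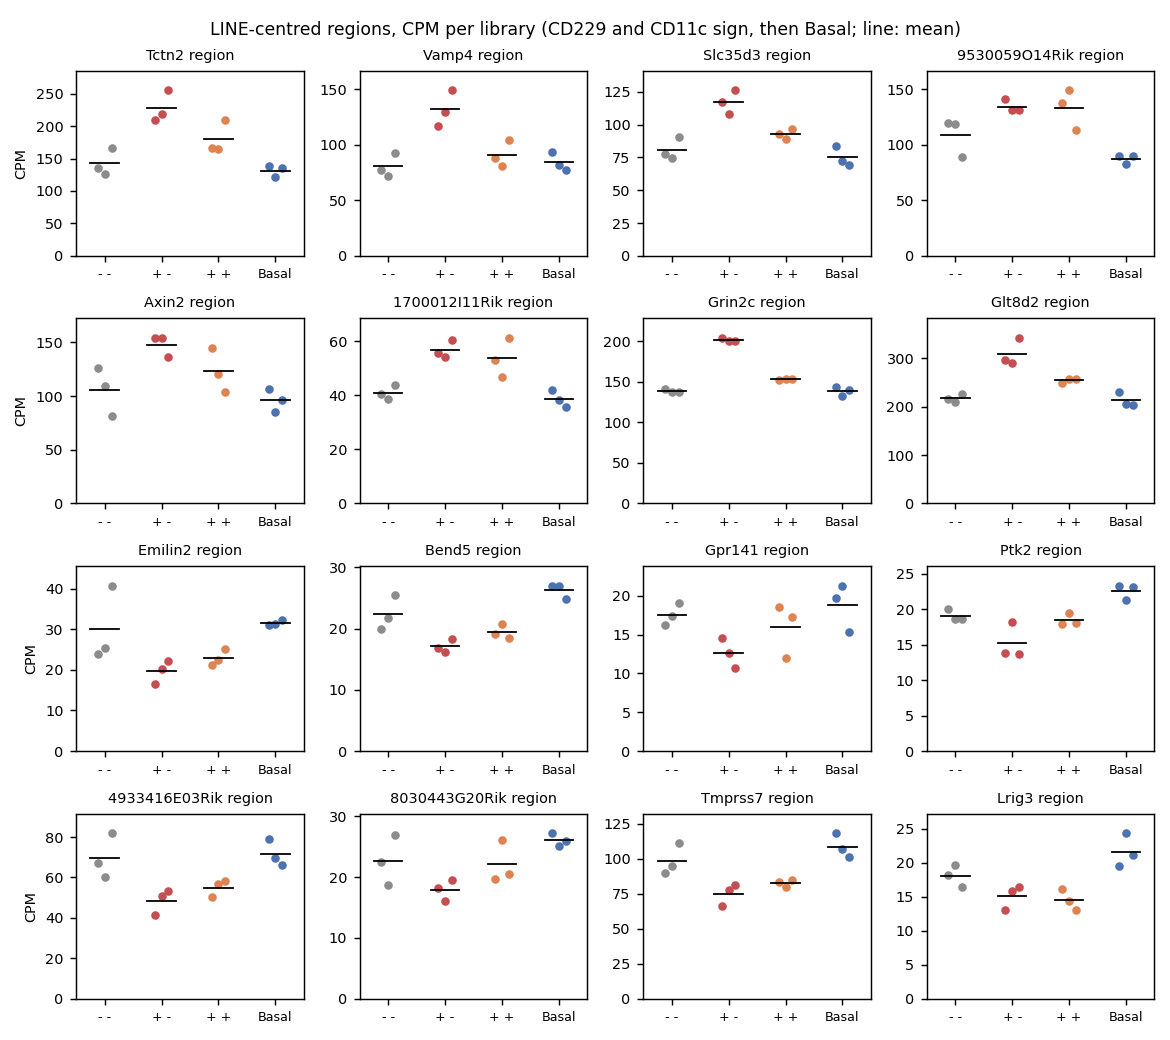
CPM per library (vertical axes, from 0) in the 16 LINE-centred regions named for CD229+CD11c- against basal microglia, the 8 rises in the upper 2 rows and the 8 falls in the lower 2. Points are libraries grouped by the signs of CD229 and CD11c and by Basal, and black lines are means; in the Grin2c panel the CD229+CD11c- points lie between 201 and 204 CPM, against 133 to 144 CPM in basal microglia.

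Counts of rises and falls varied with the annotated starts inside a region. Of the 11 regions with a CpG-rich start, 5 rose (45.5%), 0 fell, and all 11 fold changes were above 0, with a median of 0.25. Of the 115 regions whose starts were CpG-poor, 9 rose (7.83%) and 3 fell (2.61%), with a median of -0.02. Of the 2158 regions with no annotated start, 28 rose (1.3%) and 88 fell (4.08%), with a median of -0.11. Over all regions 9.52% rose and 3.47% fell, so the share of falls with no start was near that of all regions. The split by starts was made after the values were seen and has no test. It was not particular to LINE-centred regions: with a CpG-rich start, 13 of 26 LTR-centred regions, 36 of 68 intergenic regions without a repeat at the centre and 48 of 79 such intronic regions rose.

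Length went with the presence of a start. The median length was 32060 bp with a CpG-rich start, 17081 bp with a CpG-poor one and 5316.5 bp with none. No share over all regions of 20 to 50 kb is given. Among LINE-centred regions of that length, 4 of 10 with a CpG-rich start rose (40.0%) and 0 fell. With a CpG-poor start 9 of 50 rose (18.0%) and 2 fell (4.0%), and with no start 7 of 98 rose (7.14%) and 12 fell (12.2%). The scaling moved the count for the 11 regions with a CpG-rich start: with loess offsets 3 of the 11 rose and their median was 0.02. With scaling to total tags 3 rose and the median was 0.12. With the limit at the median CG count of all promoters, 11 of 39 regions rose, and with it at the 90th percentile 3 of 5. Without basal replicate 4, and likewise without CD229+CD11c- replicate 2, 3 of the 11 rose.

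The regions with a CpG-rich start that rose were those at Slc35d3, at 9530059O14Rik, at Tril, Bnc1 and Ankrd28. Tril encodes an accessory protein of Toll-like receptor signalling, Bnc1 a zinc-finger transcription factor, and Ankrd28 a subunit of a protein phosphatase. Their log2 fold changes were 0.52 ± 0.06 at Tril (edgeR adjusted p = 3.96e-06), 0.27 ± 0.08 at Bnc1 (0.0178) and 0.25 ± 0.07 at Ankrd28 (0.0215). Under scaling to total tags and loess offsets, Bnc1 had an edgeR adjusted p of 0.181 and 0.8, and Ankrd28 of 0.246 and 0.909. The Bnc1 and Ankrd28 calls were each lost in 4 of 6 fits that left out a library, with an edgeR adjusted p of up to 0.0771 for Bnc1 (without CD229+CD11c- replicate 1) and 0.101 for Ankrd28 (without CD229+CD11c- replicate 3). Rises with CpG-poor starts included the region at Mest, an imprinted gene (0.39 ± 0.08, edgeR adjusted p = 0.0016), and that at Pde4c, a cyclic AMP phosphodiesterase gene (0.39 ± 0.09, 0.00465). With loess offsets neither passed, at an edgeR adjusted p of 0.34 for Mest and 0.261 for Pde4c. The 3 falls were at the starts of predicted genes: Gm38424 (-0.48 ± 0.12, edgeR adjusted p = 0.00879), Gm39148 on chromosome 8 (-0.29 ± 0.08, 0.0214) and Gm46748 (-0.25 ± 0.08, 0.0368). The last lay in a region nearest to Mtx2. Each of the 3 calls was lost with some library left out, up to an edgeR adjusted p of 0.0615 at Gm38424 (without basal replicate 4), 0.116 at Gm39148 (without CD229+CD11c- replicate 1) and 0.152 at Gm46748 (without basal replicate 5).

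**Figure D4:**
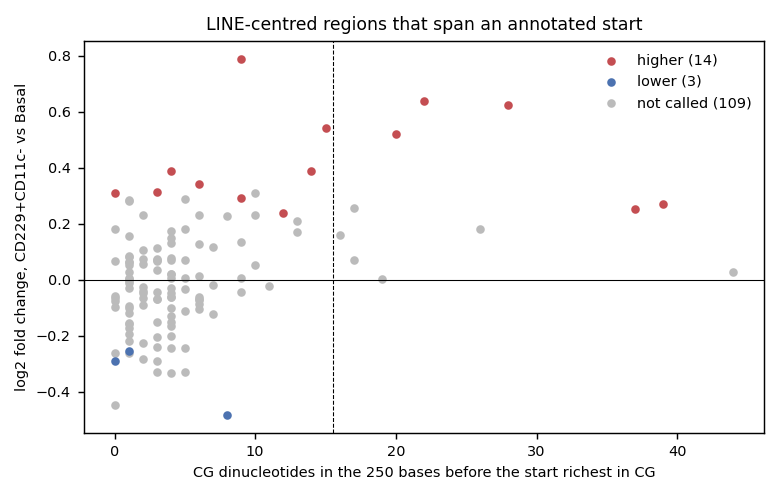
Fold change on the log2 scale, CD229+CD11c- over basal microglia (vertical axis), for the 126 LINE-centred regions that span an annotated start, against the CG dinucleotides in the 250 bases before the start richest in CG (horizontal axis). Red points rose, blue points fell and grey points were not called; right of the dashed line, at 16 or more CG, every point is above 0.

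The counts also varied with basal enrichment over input. It was measured in basal replicates 1 and 2, which took no part in the fold changes. Of 506 LINE-centred regions with a log2 enrichment between 1 and 1.25, 0 rose and 26 (5.14%) fell, beside 1.61% and 4.75% of regions outside the LINE rule in the same class. Of the 217 LINE-centred regions above 2, 12 (5.53%) rose and 0 fell, beside 35.6% and 1.39% outside the rule. In the classes between, in steps of equal width, there were 8 rises and 36 falls of 774 LINE-centred regions, then 13 and 23 of 558, then 9 and 6 of 229. Rises there took 1.03, 2.33 and 3.93% of LINE-centred regions, beside 3.16, 7.44 and 20.0% outside the rule, so more frequent rises at higher enrichment were not particular to LINE-centred regions. The median fold change of LINE-centred regions was -0.11 in the lowest class and -0.12 in the highest, beside -0.08 and 0.23 outside the rule. No test of these differences was made. The regions of the highest class were short, with a median of 1738 bp, against 7173 bp in the lowest (4907.5 and 7085 bp outside the rule), and held a median of 4.31 CPM, against 20.5 CPM.

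By LINE class, rodent L1 regions gave 14 rises and 54 falls of 1427 (median -0.12), mouse-specific L1 regions 5 and 5 of 158 (-0.12), older L1 regions 14 and 26 of 543 (-0.07) and L2 regions 8 and 6 of 128 (-0.05). Falls took 3.78% of rodent L1, 3.16% of mouse-specific L1, 4.79% of older L1 and 4.69% of L2 regions, all near the background of 3.47%. Rises took 0.981% of rodent L1 and 6.25% of L2 regions, beside the background of 9.52%. No test of the difference between classes was made. Among the commonest names, Lx9 had 0 rises and 5 falls of 82 regions (median -0.15) and L1Md_F2 had 3 and 3 of 113 (-0.14). Intronic regions had 15 rises and 24 falls of 536, and intergenic ones 27 and 67 of 1748, both with a median of -0.10.

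**Figure D5:**
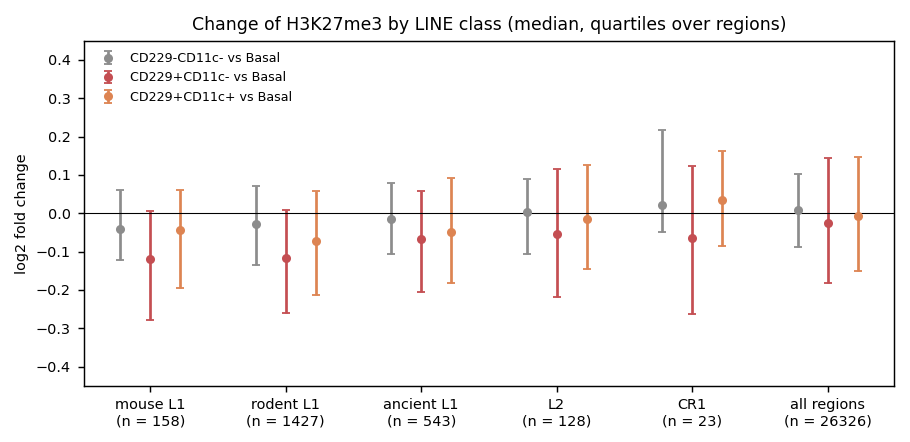
Log2 fold change against basal microglia (vertical axis; point, median over regions; bar, quartiles) for the LINE classes with 20 or more regions and for all regions (horizontal axis), in CD229-CD11c-, CD229+CD11c- and CD229+CD11c+ microglia. The bars of every class overlap; in CD229+CD11c- microglia the mouse-specific and rodent L1 medians sit at -0.12, below the -0.03 of all regions.

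In CD229+CD11c+ against basal microglia the same test called fewer LINE-centred regions: 16 rose (0.701%) and 34 fell (1.49%). Over all regions 4.33% rose and 1.47% fell, 5.79% in all, so the share of falls was near the background and that of rises below it. The median was -0.06, beside -0.01 over all regions, and 62.7% of LINE-centred regions were below 0, beside 51.4%. Scaling to total tags gave 9 rises (0.394%) and 70 falls (3.06%), beside 2.61% and 3.02% of all regions. The counts hung on single libraries, and so did those over all regions. Falls numbered 3 (0.131%) without CD229+CD11c+ replicate 1 and 1 (0.0438%) without CD229+CD11c+ replicate 2, beside 0.311 and 0.365% of all regions. Without basal replicates 3, 4 and 5 they numbered 5, 2 and 22 (0.219, 0.0876 and 0.963%), beside 0.52, 0.418 and 0.927% of all regions. Rises numbered 7 and 8 (0.306 and 0.35%) without CD229+CD11c+ replicates 1 and 2, beside 1.43 and 1.91% of all regions. Without basal replicates 4 and 5 rises numbered 6 and 10 (0.263 and 0.438%), beside 1.26 and 2.92%. This comparison and the one above share the basal libraries.

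The largest rise by the rule was in intron 3 of Ksr2, which encodes a scaffold of the Ras and MAP kinase pathway (chr5:117531259-117537405, L2a at the centre). It had 29.1, 28.8 and 20.5 CPM in CD229+CD11c+ microglia, against 16.1, 14.8 and 17.9 CPM in basal microglia. The lowest CD229+CD11c+ library was well under the other two, but above all basal ones (0.68 ± 0.19, edgeR adjusted p = 0.0385). The call was lost in 5 of 6 fits that left out a library, with an edgeR adjusted p of up to 0.178 without CD229+CD11c+ replicate 1, and with scaling to total tags (0.0572). A region 211 kb from Nxpe2 had 30.4, 26.5 and 21.9 CPM in CD229+CD11c+ microglia, against 15.2, 18.0 and 17.2 CPM in basal microglia (0.64 ± 0.16, edgeR adjusted p = 0.0183). It too was lost in 5 of 6 such fits, up to 0.137 without CD229+CD11c+ replicate 1.

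Steadier rises lay at regions of higher level. The 9530059O14Rik region had 138, 149 and 113 CPM in CD229+CD11c+ microglia, against 89.5, 82.4 and 89.5 CPM in basal microglia (0.61 ± 0.11, edgeR adjusted p = 0.00179). A 37.4 kb region 46.7 kb downstream of Mir101b, a microRNA gene, had 208, 212 and 229 CPM in CD229+CD11c+ microglia, against 167, 147 and 169 CPM in basal microglia (0.43 ± 0.07, edgeR adjusted p = 0.00168). In intron 7 of Wipf3, a gene of actin regulation, a region whose nearest TSS is that of 9130019P16Rik had 94.8, 81.5 and 91.0 CPM in CD229+CD11c+ microglia, against 62.2, 72 and 66.2 CPM in basal microglia (0.42 ± 0.08, edgeR adjusted p = 0.00428). Groups were apart in all 3 regions. They and the 1700012I11Rik region (0.48) stayed called with any 1 of the 6 libraries left out. The Tctn2 region (0.46 ± 0.11, edgeR adjusted p = 0.0155) lost its call without basal replicate 4 (0.11), without CD229+CD11c+ replicate 3 (0.0676) and with loess offsets (0.111). The last of the 8 rises, 12.3 kb upstream of 4930597G03Rik (0.45, edgeR adjusted p = 0.0441), was lost in every fit that left out a library, up to 0.167 without CD229+CD11c+ replicate 2, and with scaling to total tags (0.0852).

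Falls in CD229+CD11c+ microglia included a region 157 kb upstream of Cd180, a receptor of the Toll-like family found on B cells and macrophages (chr13:102530196-102541958, Lx at the centre). It had 31.6, 30.5 and 33.1 CPM in CD229+CD11c+ microglia, against 45.2, 41.9 and 42.5 CPM in basal microglia. The libraries of each group lay close together and the groups far apart (-0.45 ± 0.09, edgeR adjusted p = 0.00484), and the call held with any 1 of the 6 libraries left out. The largest fall by the rule for named regions, near Lrig3 (chr10:125683251-125689750, L1Md_F2 at the centre), had 16.1, 14.4 and 13.1 CPM in CD229+CD11c+ microglia, against 19.5, 24.3 and 21.1 CPM in basal microglia (-0.57 ± 0.14, edgeR adjusted p = 0.0147). It was lost in 3 of 6 such fits, up to 0.114 without basal replicate 4.

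The other falls by the rule lay between -0.49 and -0.44. They were in intron 2 of Zpbp, a sperm gene; in intron 3 of Rab11fip4, which encodes an effector of Rab11; upstream of Prmt6, an arginine methyltransferase gene; at Tshb, which encodes the beta subunit of thyrotropin; and upstream of Ccdc90b and Megf9. Each lost its call in at least 4 of 6 fits that left out a library. The edgeR adjusted p reached 0.0746 for Zpbp without basal replicate 3 and 0.167 for Prmt6 without basal replicate 4. It reached 0.187 for Rab11fip4, 0.147 for Tshb and 0.122 for Ccdc90b without CD229+CD11c+ replicate 1, and 0.197 for Megf9 without CD229+CD11c+ replicate 2. The Megf9 call was also lost with loess offsets (0.0736).

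CD229-CD11c- microglia, which come from the same cuprizone diet, differed from basal microglia at no LINE-centred region that passed the test. By edgeR 0 regions rose and 0 fell, as over all regions (0% called in either direction). DESeq2 called 0 as well. At an unadjusted p under 0.05 there were 103 LINE-centred regions (4.51%), beside 4.19% of all regions. The median was -0.02, beside 0.01 over all regions. Tagged libraries alone gave 17 rises (0.744%) and 12 falls (0.525%), beside 2.99% and 0.49% of all regions. The smallest p-values belonged to regions near Gpr141, Fbxo10, 4930597G03Rik, 5031425E22Rik and Cyp2r1, all with an edgeR adjusted p of 0.983. Near Gpr141 (chr13:19872215-19875263) the CD229-CD11c- libraries had 7.92, 7.70 and 7.83 CPM and the basal ones 12.9, 12.5 and 9.92 CPM, with a log2 fold change of -0.59 ± 0.16. Near Fbxo10 they had 20.1, 22.7 and 26.4 CPM in CD229-CD11c- and 31.3, 31.8 and 29.2 CPM in basal microglia (-0.41 ± 0.13). With tagged libraries alone this fall was called (edgeR adjusted p = 0.00579).

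Within the cuprizone diet, CD229+CD11c- microglia differed from CD229-CD11c- microglia at 62 LINE-centred regions, 32 higher (1.40%) and 30 lower (1.31%). Over all regions 6.75% were higher and 1.6% lower, 8.35% in all, and the medians were -0.07 for LINE-centred regions and -0.03 for all. With the replicate number as a block 65 were higher (2.85%) and 136 lower (5.95%), beside 12% and 5.47% of all regions. Scaling to total tags gave 15 (0.657%) and 152 (6.65%), beside 4.02% and 6.45% of all regions. Loess offsets gave 19 (0.832%) and 33 (1.44%), beside 4.11% and 2.05%. Without CD229+CD11c- replicate 2 there were 18 (0.788%) and 14 (0.613%), beside 5.01% and 0.809% of all regions. Without CD229-CD11c- replicate 2 there were 20 (0.876%) higher, beside 4.88%. Without CD229+CD11c- replicate 1 there were 15 (0.657%) lower, beside 0.893%.

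The 3 largest rises by the rule were regions already named above. The Vamp4 region had 117, 130 and 149 CPM in CD229+CD11c- microglia, against 77.4, 71.8 and 92.4 CPM in CD229-CD11c- microglia (0.71 ± 0.11, edgeR adjusted p = 0.000241). The Tctn2 region had 209, 218 and 255 CPM in CD229+CD11c- microglia, against 135, 126 and 167 CPM in CD229-CD11c- microglia (0.67 ± 0.11, edgeR adjusted p = 0.000377). The Grin2c region had 204, 201 and 201 CPM in CD229+CD11c- microglia, against 141, 138 and 138 CPM in CD229-CD11c- microglia (0.54 ± 0.06, edgeR adjusted p = 1.34e-05). In all 3 the groups were clearly apart, and the CD229-CD11c- libraries overlapped the basal ones.

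Of the largest falls by the rule, the Emilin2 region had 16.4, 20.3 and 22.2 CPM in CD229+CD11c- microglia, against 23.9, 25.4 and 40.7 CPM in CD229-CD11c- microglia (-0.62 ± 0.16, edgeR adjusted p = 0.0209). The untagged replicate 3 of CD229-CD11c- stood well above the other two, and without it the fall was -0.33 (edgeR adjusted p = 0.131). A region upstream of Cr2, the complement receptor gene, had 13.9, 14.4 and 15.4 CPM in CD229+CD11c- microglia, against 19.3, 21.3 and 25.6 CPM in CD229-CD11c- microglia (-0.605 ± 0.13, edgeR adjusted p = 0.0038). The 4933416E03Rik region had 41.6, 50.6 and 53.4 CPM in CD229+CD11c- microglia, against 67.0, 60.3 and 81.8 CPM in CD229-CD11c- microglia (-0.53 ± 0.11, edgeR adjusted p = 0.00408). Groups did not overlap in either.

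CD229+CD11c+ and CD229-CD11c- microglia differed at 1 LINE-centred region, the one near Mir101b (0.0438%), and 0 were lower. Over all regions 0.395% were higher and 0.152% lower, 0.547% in all. DESeq2 gave 5 (0.219%) and 0, beside 1.01% and 0.217% of all regions. Leaving out CD229-CD11c- replicate 3 gave 4 (0.175%) and 0, beside 0.858% and 0.171%. At an unadjusted p under 0.05 there were 166 LINE-centred regions (7.27%), beside 11.2% of all regions. The Mir101b region had 208, 212 and 229 CPM in CD229+CD11c+ microglia, against 165, 164 and 171 CPM in CD229-CD11c- microglia (0.375 ± 0.07, edgeR adjusted p = 0.0177). The call was lost with loess offsets (0.11) and in 4 of 6 fits that left out a library, up to 0.101 without CD229-CD11c- replicate 2. With the replicate number as a block 28 regions were higher (1.23%) and 34 lower (1.49%), beside 5.90% and 1.79% of all regions.

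The 2 CD229+ subsets differed at 4 LINE-centred regions, 1 higher (0.0438%) and 3 lower (0.131%) in CD229+CD11c+ than in CD229+CD11c- microglia. Over all regions 0.0532% were higher and 0.771% lower, 0.824% in all. The higher one, 54.0 kb downstream of Plekhb2, had 40.9, 44.4 and 38.9 CPM in CD229+CD11c+ microglia, against 31.7, 32.1 and 30.5 CPM in CD229+CD11c- microglia (0.39 ± 0.09, edgeR adjusted p = 0.0478). The lower ones were the Grin2c region with 152, 154 and 154 CPM in CD229+CD11c+, against 204, 201 and 201 CPM in CD229+CD11c- microglia (-0.40 ± 0.06, edgeR adjusted p = 0.00563), the Vamp4 region (-0.53 ± 0.11, 0.0287) and a 37.1 kb region upstream of Osmr, the oncostatin M receptor gene (-0.32 ± 0.07, 0.0316). None of the 4 had overlapping groups, which the rule for named regions required. Each call was lost when some library was left out. The edgeR adjusted p reached 0.0701 for Grin2c, 0.243 for Vamp4, 0.221 for Osmr and 0.297 for Plekhb2, each without CD229+CD11c+ replicate 2. Only the Grin2c call was kept with scaling to total tags, and likewise with loess offsets. DESeq2 called 3 regions (0.131%) higher and 13 (0.569%) lower, beside 0.0988% and 2.44% of all regions.

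Among genes of microglial activation, 5 LINE-centred regions lay nearest to 4 genes. A single one (20%) was called in CD229+CD11c- against basal microglia, beside 9.52% rises and 3.47% falls over all regions. It was a 3.72 kb intergenic region centred on an L2 element 6.3 kb downstream of the TSS of Fabp5 (chr3:10017030-10020747). Fabp5 encodes a fatty acid binding protein. The region had 4.53, 5.26 and 3.82 CPM in CD229+CD11c- microglia, against 8.00, 11 and 8.11 CPM in basal microglia. The groups did not overlap, and the log2 fold change of -0.997 ± 0.22 (edgeR adjusted p = 0.00277), the largest fall called in this comparison, held with any 1 of the 6 libraries left out. In CD229+CD11c+ microglia it had 6.38, 5.30 and 8.22 CPM, which overlapped the basal libraries (-0.44 ± 0.20, edgeR adjusted p = 0.226). The CD229-CD11c- libraries had 6.57, 8.2 and 8.51 CPM there, above all of the CD229+CD11c- ones. Against CD229-CD11c- microglia, 1 of the 5 regions was called lower in CD229+CD11c- microglia, beside 1.6% of all regions. A second region, 30.3 kb upstream of Fabp5, did not pass (-0.20, edgeR adjusted p = 0.347), and neither did one 28.1 kb upstream of Cst7, the cystatin F gene (0.02, edgeR adjusted p = 0.964).

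Olfactory, vomeronasal and taste receptor genes are silent in microglia and lie in clusters dense in L1. They were nearest to 75 LINE-centred regions, of which 1 rose (1.33%) and 4 fell (5.33%) in CD229+CD11c- against basal microglia, beside 9.52% and 3.47% of all regions. The rise, upstream of the pseudogene Olfr1372-ps1, had 79.2, 78.8 and 78.7 CPM in CD229+CD11c- microglia, against 63.3, 47.3 and 58.8 CPM in basal microglia (0.48 ± 0.09, edgeR adjusted p = 0.000806). Among the falls, the region nearest to the odorant receptor gene Olfr1511 had 7.72, 6.89 and 6.73 CPM in CD229+CD11c- microglia, against 9.90, 11.2 and 11.6 CPM in basal microglia (-0.61 ± 0.16, edgeR adjusted p = 0.0102). The groups were apart, and the call held with any 1 of the 6 libraries left out. The region nearest to the vomeronasal receptor gene Vmn2r120 had 31.4, 28.5 and 30.9 CPM in CD229+CD11c- microglia, against 38.0, 39.9 and 37.2 CPM in basal microglia (-0.34 ± 0.095, edgeR adjusted p = 0.0184). Its groups did not overlap either, but the call was lost in 2 of 6 fits that left out a library, up to 0.0919 without CD229+CD11c- replicate 2.

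Zinc-finger genes named Zfp with a number, many of them KRAB repressors of retrotransposons, were nearest to 62 regions, of which 0 rose and 2 (3.23%) fell, a share near the 3.47% of all regions. Those were near Zfp317 (-0.40 ± 0.11, edgeR adjusted p = 0.0156) and Zfp330 (-0.40 ± 0.13, 0.0467). The Zfp317 call was lost in 4 of 6 fits that left out a library, up to 0.0807 without basal replicate 3. That of Zfp330 was lost in 5 of 6, up to 0.189 without basal replicate 3, and with loess offsets (0.0868), DESeq2 (0.0519) and tagged libraries alone (0.064). In CD229+CD11c+ microglia 0 rose and 1 (1.61%) fell, beside 4.33% and 1.47% of all regions. It lay near Zfp938 (-0.28 ± 0.08, edgeR adjusted p = 0.0302). The Zfp938 call was lost in 5 of 6 fits that left out a library, up to 0.142 without basal replicate 4. In CD229+CD11c- microglia the median fold change was -0.097 over the regions near Zfp genes and -0.11 over those near chemosensory receptors, beside -0.10 over all LINE-centred regions. In CD229+CD11c+ microglia it was -0.12 near Zfp genes, where 75.8% of regions were below 0, and -0.04 near chemosensory receptors, where 54.7% were, beside -0.06 and 62.7% over all LINE-centred regions. Of the long genes of neuronal adhesion and synapses listed, Cntnap2 and Ntm had a region each and neither passed.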

How the data were processed

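Per the labels, all libraries are of sorted mouse microglia: 14 of H3K27me3 and 14 of input. The submitters' processing notes list HOMER, DESeq2, STAR 2.7.0f, fastp 0.20.0 and Bowtie2 2.3.4.1 and the build mm10, without tying tools to steps. Per the file headers the authors called regions with HOMER on basal replicates 1 and 2 against 2 inputs. The deposited tables give raw tag counts of 12 libraries, which were tested here, and the log2 fold over input with 4 columns of log2 values for the 2 basal replicates and their inputs. The deposited normalized signal columns, p-value columns, region sizes and peak scores were not tested, and no header or label gives the scale of the scores. Input was not subtracted from the 12 libraries.

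Counts were fitted with edgeR 4.0.16 in R 4.3.3 (filterByExpr, which removed 0 regions; TMM; robust quasi-likelihood, 4 groups in 1 model), with Benjamini-Hochberg adjustment over 26326 regions and calls at an adjusted p under 0.05. CPM values are tags scaled to a common TMM-adjusted library total; errors of fold changes are standard errors. DESeq2 1.42.0 was an alternative. The fit was tested on simulated data. Nothing in the labels says that replicates came from separate animals, so p-values measure the spread between pools. Replicate numbers paired CD229-CD11c- with the CD229+CD11c- libraries (correlations of deviations 0.28, 0.13 and 0.46) and with the CD229+CD11c+ libraries (0.24, 0.13 and 0.42), from the data and the numbers in the labels. Differently numbered libraries that carry the same PE150 tag correlated to a like degree (0.25 between CD229-CD11c- replicate 2 and CD229+CD11c- replicate 1, and 0.14 between CD229-CD11c- replicate 1 and CD229+CD11c- replicate 2), so pairing by number cannot be told apart from the tag; basal and cuprizone libraries share only number 3.

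Regions named were, for both CD229+ subsets against basal microglia, and for CD229+CD11c+ set against CD229-CD11c- microglia, the 8 largest folds each way that were called, had at least the median level of the members (15.8 CPM) and did not overlap between groups; for other comparisons the first 3 each way or, with none, the 5 smallest p; then the 3 densest, 3 longest and 3 densest L1Md regions, and 3 per gene list. Starts with CG counts were chosen after the values were seen, and other called regions named with them lie outside the rule. The members, lists and rules were chosen with earlier results of these data known. RefSeq starts matched the deposited TSS distances within 50 bp for 96.6% of 19838 regions.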

Additional observations from a re-analysis of the deposited data

Results flagged for a closer look

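Within the cuprizone diet, 11 differences passed the test at LINE-centred regions that the rule named for a comparison of 2 subsets. These regions thus moved differently from basal microglia in the subsets compared. The 11 are not a count of all such differences: 62 LINE-centred regions were called in CD229+CD11c- against CD229-CD11c- microglia. In CD229+CD11c- against CD229-CD11c- microglia the log2 fold changes were 0.706 at Vamp4, 0.67 at Tctn2, 0.539 at Grin2c, -0.621 at Emilin2, -0.605 at Cr2 and -0.529 at 4933416E03Rik. In CD229+CD11c+ against CD229-CD11c- microglia there was 1, of 0.375 at Mir101b. In CD229+CD11c+ against CD229+CD11c- microglia the values were 0.394 at Plekhb2, -0.529 at Vamp4, -0.398 at Grin2c and -0.32 at Osmr.

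The Vamp4 and Grin2c regions appear in both directions: each was highest in CD229+CD11c- microglia, with 132 ± 16 CPM at Vamp4, against 80.5 ± 10.6 in CD229-CD11c- and 84.3 ± 8.01 in basal microglia (SD, n = 3 each), and 91.1 ± 12 in CD229+CD11c+ microglia. At Grin2c the CD229+CD11c- mean was 202 ± 1.81 CPM, against 139 ± 1.31 in CD229-CD11c- and 139 ± 5.68 in basal microglia, and 153 ± 1.23 in CD229+CD11c+ microglia. Such a peak was not particular to them. The Osmr region had 318, 325 and 333 CPM in CD229+CD11c- microglia, against 234, 217 and 231 CPM in CD229-CD11c- microglia. It had 262, 261 and 259 CPM in CD229+CD11c+ and 257, 217 and 226 CPM in basal microglia. All but the Emilin2 fall of the CD229+CD11c- against CD229-CD11c- values kept their call with any 1 library of the 2 subsets left out.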

How the results depend on the processing

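Against basal microglia, scaling to total tags gave 22 rises and 444 falls in CD229+CD11c- and 9 and 70 in CD229+CD11c+ microglia. Loess offsets gave 10 rises (0.438%) in CD229+CD11c+ microglia, beside 2.93% of all regions. The PE150 tag as a term gave 76 and 231 in CD229+CD11c- microglia. It gave 72 (3.15%) and 187 (8.19%) in CD229+CD11c+ microglia, beside 11.2% and 6.06% of all regions. In CD229-CD11c- microglia it gave 1 rise (0.0438%), beside 0.122%. Tagged libraries alone gave 66 and 242 in CD229+CD11c- and 17 and 12 in CD229-CD11c- microglia. In CD229+CD11c+ microglia they gave 66 (2.89%) and 127 (5.56%), beside 10.9% and 5.36%. Shares not given in this section stand with the same counts above. For CD229+CD11c- against CD229-CD11c- the counts were 15 and 152 with total tags, 19 rises with loess and 65 and 136 with the replicate block. The tag as a term gave 62 (2.71%) and 121 (5.3%), beside 11.5% and 5.09% of all regions. Tagged libraries alone gave 66 falls (2.89%), beside 3.1%. For CD229+CD11c+ against CD229-CD11c- they were 5 rises with DESeq2 and 28 and 34 with the replicate block. Loess offsets gave 0 rises, beside 0.186% of all regions. The tag as a term gave 21 (0.919%) and 28 (1.23%), beside 4.63% and 1.59%. Tagged libraries alone gave 19 (0.832%) and 8 (0.35%), beside 2.77% and 0.775%. For CD229+CD11c+ against CD229+CD11c- they were 0 and 1 (0.0438%) with total tags and with loess, beside 0.095% and 0.156% falls of all regions. DESeq2 gave 3 and 13. The tag as a term gave 31 (1.36%) and 39 (1.71%), beside 1.39% and 5.91% of all regions. Tagged libraries alone gave 30 (1.31%) and 22 (0.963%), beside 0.972% and 4.33%. The replicate block gave 39 (1.71%) and 43 (1.88%), beside 1.85% and 6.51%. Here same-numbered libraries correlated at 0.20, 0.08 and 0.33. Differently numbered libraries that carry the same tag correlated at 0.09 and 0.10, so the values did not settle whether the numbers pair. Tag and block terms called more regions; the cause was not tested.

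With single libraries left out, against basal microglia rises numbered 0 to 1 and falls 0 to 0 in CD229-CD11c-, 27 to 36 and 32 to 104 in CD229+CD11c-, and 6 to 16 and 1 to 24 in CD229+CD11c+; against CD229-CD11c- 18 to 40 and 14 to 30 in CD229+CD11c-, and 0 to 4 and 0 to 1 in CD229+CD11c+; and 0 to 1 and 0 to 2 in CD229+CD11c+ against CD229+CD11c-. Fewer samples enter these fits, and counts over all regions moved too. In CD229+CD11c- against basal microglia, the fewest falls, 32 (1.4%), came without basal replicate 4, beside 1.57% of all regions. The most, 104 (4.55%), came without CD229+CD11c- replicate 3, beside 3.46%. No named region reversed its direction under these alternatives. A mean count of at least 50 ended 1 call among them, at Srd5a2 (edgeR adjusted p = 0.0519), and the replicate block changed no call of a named region. Of all tags in regions, LINE-centred regions under 20 kb took 4.16% in CD229-CD11c- microglia, 3.71% in CD229+CD11c- microglia, 3.94% in CD229+CD11c+ microglia and 4.31% in basal microglia, and those over 50 kb from a TSS 1.99, 1.76, 1.91 and 2.04%, with fewer regions by construction. Regions with few tags, such as the 454 under 3 kb (median 6.05 CPM), limit what change is detectable at this depth.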

Other observations

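The 26 LINE-centred regions on the X chromosome, of 287 X-linked regions in all, were short (median 1706 bp). Their median density was 2.13 CPM per kb in basal microglia, against 3.02 over autosomal LINE-centred regions, and male mice carry a single X, which lowers tags per kb at equal marking. Set against input in the authors' deposited table, the order was the other way, with a median basal log2 enrichment of 2.29 on the X and 1.45 on the autosomes. In CD229+CD11c- microglia 23 of the 26 fold changes against basal microglia lay below 0 (median -0.20), and 0 were called; the 261 X-linked regions outside the LINE rule had a median of 0.18, and 23.0% of them rose. In CD229+CD11c+ microglia 19 of the 26 lay below 0 (median -0.25), and 1 fall was called; the X-linked regions outside the rule had a median of 0.13, and 7.28% rose. The difference was not tested.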
